A study of Homo sapiens with 4 samples.

Results

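The windows described here are 1 kb stretches of the human genome in which CpG methylation was lower in HUDEP-2 cells differentiated with an EED inhibitor than in the 2 libraries made without an inhibitor. The genome was divided into non-overlapping windows of 1000 bp on chromosomes 1 to 22. A window was eligible if it held at least 3 CpGs listed in all 4 libraries and at least 100 reads summed over those CpGs in each library. A member had a level, meaning methylated reads over all reads, at least 20 percentage points under both the DMSO and the undifferentiated library. The rule found 579 members among 2024509 eligible windows, which is 0.0286%. Since the rule used the levels of these 3 libraries, their values in members are a description and carry no test.

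HUDEP-2 is an immortalised line of human erythroid precursors, and the study addressed the binding and expression of BCL11A, a repressor of fetal haemoglobin, in these cells. The assay was bisulfite sequencing of the whole genome, in which unmethylated cytosine is read as T. There were 4 libraries, 1 for each of 4 groups: undifferentiated cells without compound (NonDiff), and cells differentiated with DMSO alone, a DNMT1 inhibitor or an inhibitor of EED. Compounds were given in 0.1% DMSO from the expansion stage through 4 days of differentiation and growth and 2 days of maturation. The compounds' names and doses are not given in the sources used here, and the treated cells are labelled as having raised fetal haemoglobin. With 1 library per group of 1 cell line there was no spread between replicates, and a difference between libraries cannot be told apart from a difference between cultures.

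CpG methylation is copied to new DNA strands by DNMT1 and is widespread across mammalian genomes, with CpG islands at promoters as the main exception. Large stretches of intermediate methylation, called partially methylated domains, are common in cultured cells and tend to be poor in genes and late in replication. EED is the subunit of Polycomb repressive complex 2 that binds methylated histone H3 and stimulates the methylation of lysine 27 of that histone. It does not methylate DNA itself.

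The sequences of 4 members are shown for their position, and they do not stand for the other members, of which many lay in introns and lncRNA genes: the member with the greatest shortfall, which overlaps a coding exon (MPDZ), an intergenic member on the side of BCL11A beyond its 3′ end, a member beside the HOXA cluster and EVX1, and the only promoter member (MAGEL2). Each stretch is on the plus strand of hg38, 5′ to 3′, with CpGs in capitals.
MPDZ, chr9:13147452-13147691: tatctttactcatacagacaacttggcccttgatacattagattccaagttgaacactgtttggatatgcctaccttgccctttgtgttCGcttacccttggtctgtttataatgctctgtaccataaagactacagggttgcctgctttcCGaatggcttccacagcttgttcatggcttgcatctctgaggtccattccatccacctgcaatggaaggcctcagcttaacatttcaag
BCL11A side, chr2:60275562-60275801: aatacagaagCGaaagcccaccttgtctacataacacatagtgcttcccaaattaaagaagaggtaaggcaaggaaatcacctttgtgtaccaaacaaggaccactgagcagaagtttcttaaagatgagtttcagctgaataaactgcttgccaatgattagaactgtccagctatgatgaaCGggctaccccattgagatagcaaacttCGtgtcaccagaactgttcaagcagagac
EVX1 side, chr7:27254463-27254702: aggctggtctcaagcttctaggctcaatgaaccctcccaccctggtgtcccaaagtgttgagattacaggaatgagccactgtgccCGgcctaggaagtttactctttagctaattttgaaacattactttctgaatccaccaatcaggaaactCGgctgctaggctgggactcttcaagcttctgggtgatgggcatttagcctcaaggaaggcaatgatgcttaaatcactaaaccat
MAGEL2 promoter, chr15:23648153-23648392: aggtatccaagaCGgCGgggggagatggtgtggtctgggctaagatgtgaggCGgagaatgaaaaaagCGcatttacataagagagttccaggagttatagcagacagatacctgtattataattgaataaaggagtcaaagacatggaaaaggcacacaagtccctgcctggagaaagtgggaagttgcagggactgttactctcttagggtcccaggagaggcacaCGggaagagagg

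The libraries listed between 24689329 and 24971588 CpGs, each with at least 10 reads, at a mean coverage of 27.2 to 29.7 reads. Of 24844416 autosomal CpGs listed in any library, 91.6% were listed in all 4. As a check of the label, promoter levels of the erythroid markers reported here were, in DMSO, 2.12% for KLF1, an erythroid transcription factor, 46.9% for ALAD, 50.5% for EPOR and 83.5% for SLC4A1, the red cell anion exchanger. The lymphoid markers CD3D, CD79A and CD3E ran from 52.9% to 58.7%, and the myeloid markers MPO, CSF1R and ELANE from 24% to 78.1%. These levels overlapped, so promoter methylation did not separate erythroid from other markers, and RNA was not analysed here.

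Pooled over the 579 members, the level was 56.5% in NonDiff, 56.8% in DMSO, 33.0% with the EED inhibitor and 11.7% with the DNMT1 inhibitor. The 95% Wilson interval was 32.7% to 33.3% with the EED inhibitor and 56.5% to 57.1% in DMSO. It covers counting error only and treats PCR reads as independent molecules. Levels ran from 27.9% to 97.3% in NonDiff, from 26.1% to 96.5% in DMSO and from 5.17% to 73.9% with the EED inhibitor. The NonDiff and DMSO levels were less than 5 points apart in 480 of the 579 windows, which is a description because the rule used both libraries. The DMSO level lay between 30% and 70% in 488 members and at 80% or more in 13, while the EED inhibitor level was under 20% in 91. The level with the DNMT1 inhibitor, which the rule did not use, was under that with the EED inhibitor in 574 members. This order was not particular to members. Pooled over all eligible windows that are no members, the EED inhibitor library stood at 60.5% and the DNMT1 inhibitor library at 17.3%.

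**Figure D1:**
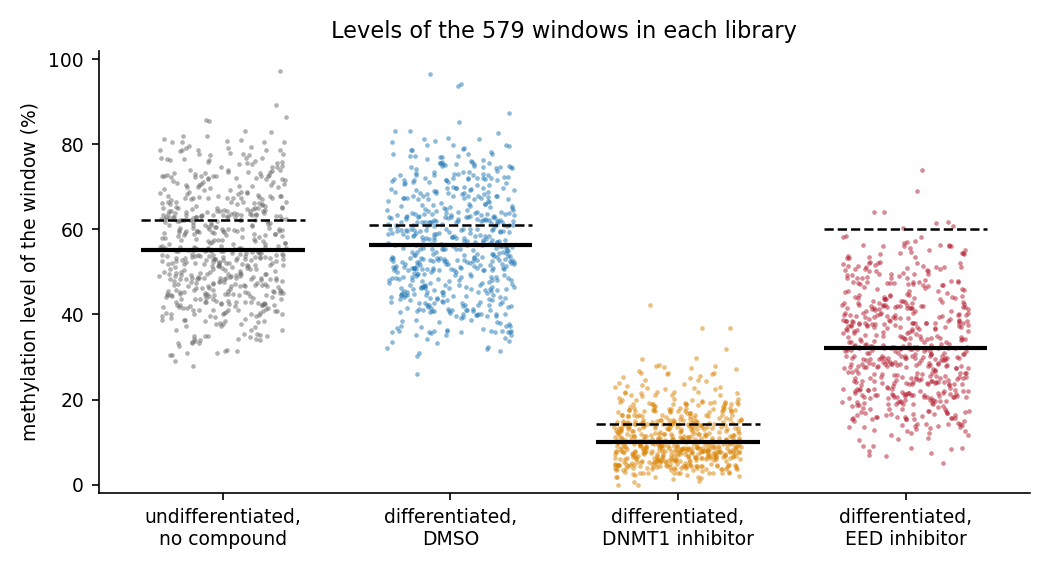
Methylation level in percent (vertical axis) of each of the 579 windows (points) in the 4 libraries (horizontal axis). Solid lines are medians over these windows and dashed lines are medians over the 1868541 eligible windows at 20% or more in DMSO and NonDiff. The 3 libraries other than the DNMT1 inhibitor library were used to choose the windows.

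Most members lay near the threshold. The shortfall, meaning the smaller of the 2 differences from DMSO and NonDiff, had a median of 21.6 points and a highest value of 31.4 points, and 349 members were under 22 points. It reached 25 points in 60 members. The members just inside the threshold were at 20 points each. They lay 27.6 kb from the start of FCN1 (chromosome 9), in EYS (chromosome 6) and 409 kb from the start of TOM1L1 (chromosome 17). The windows just outside were at 19.99, 19.99 and 19.98 points. Their nearest protein-coding starts were those of PTBP2, TMC3 and SLC6A15, at 178, 93.3 and 183 kb.

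The same rule applied in the other direction and to the other libraries gives the measured background for the count. The EED inhibitor library was at least 20 points above both DMSO and NonDiff in 51 windows, or 0.00252%. DMSO was lower than the EED inhibitor and NonDiff libraries in 64 windows (0.00316%) and higher than both in 48 (0.00237%). NonDiff was lower than both others in 11 windows (0.000543%) and higher in 64 (0.00316%). The count of 579 was thus the highest of the 6, and these counts share libraries. With a difference of 25 points in place of 20, 60 windows were lower and 5 higher with the EED inhibitor, and with 30 points 4 were lower and none higher. The libraries also differed beyond these windows: the CpGs 5 to 50 kb away from eligible windows at 20% or more in DMSO and NonDiff had a median difference of −0.75 points between the EED inhibitor and DMSO libraries. Over all eligible windows that are no members, the pooled EED inhibitor level differed by −0.96 points from DMSO and −2.39 points from NonDiff. The part of these offsets in the count was not tested.

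**Figure D2:**
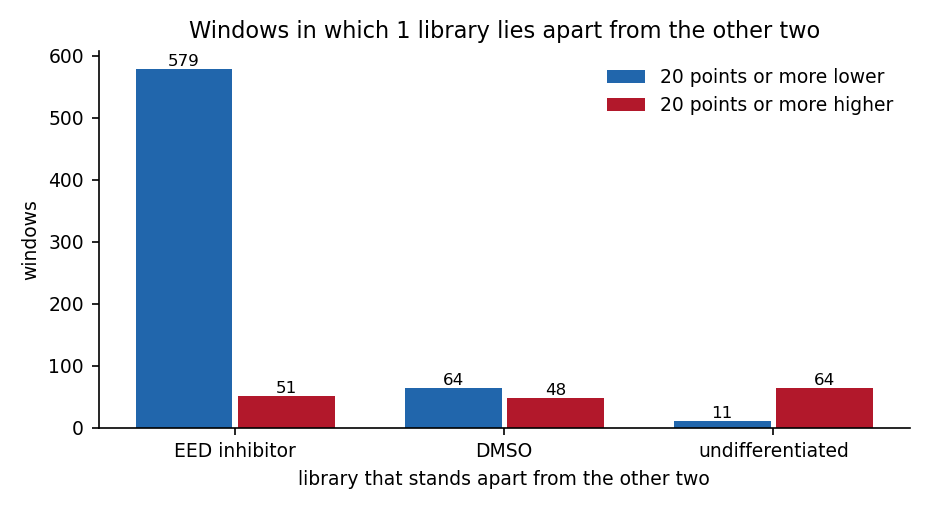
Number of eligible windows (vertical axis) in which 1 library was at least 20 points lower (blue) or higher (red) than each of the other 2, for the EED inhibitor, DMSO and undifferentiated libraries (horizontal axis). The counts were 579 and 51, 64 and 48, and 11 and 64.

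Members had few CpGs and few reads. The median was 5 shared CpGs, against 9 over the 1868541 eligible windows at 20% or more in DMSO and NonDiff, the windows that could meet the rule, called usable windows here. Of the members, 488 (84.3%) held 3 to 6 CpGs, against 29.5% of usable windows. The share of usable windows that were members was 0.170% with 3 to 4 CpGs and 0.00105% with 15 or more, and for the 51 windows of the opposite direction it went from 0.0120% to 0. The library with the fewest reads held under 150 in 437 members. With reads as counted, the interval with the EED inhibitor was apart from those of both references in all 579 members. The rule chose members on these levels. When the reads were divided by the number of CpGs, no member had such an interval. In 14 members the divided-read interval with the EED inhibitor was apart from that in DMSO. The division treats all CpGs of a window as lying on the same molecules. They can lie far apart, as the 4 CpGs of the MPDZ member of greatest shortfall did, over 533 bp. The lack of such members can therefore follow from the divisor. These counts were not compared with other windows, and whether depth alone accounts for them was not tested.

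Within the windows most CpGs shared the direction. Of 2982 shared CpGs, 2423 (81.3%) had a lower level with the EED inhibitor than in both references, and in 216 members every CpG did. The rule summed these CpGs, so their direction was largely set by the choice of windows. The same holds for the counts of lower CpGs in single members given below. A set of 18 CpGs in 16 members was listed in NonDiff, DMSO and the EED inhibitor library but not in the DNMT1 inhibitor library, and the rule did not use them. Their pooled levels were 49.0% (42.8% to 55.2%) in NonDiff, 45.8% (39.98% to 51.7%) in DMSO and 39.0% (33.3% to 44.9%) with the EED inhibitor, and 7 of the 18 were lower than both. The difference at these CpGs was not tested, and they can share reads with the CpGs that the rule used.

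The difference from DMSO, −23.8 points in the members, was set there by the rule. In the windows around them, which the rule did not select, it was between −2.65 and −0.91 points in each 1 kb step from 1 to 20 kb on either side, and nothing about the width of the lower level follows from this contrast. The CpGs 1 to 5 kb from the window edges, with members left out, were not used by the rule and were tested in every eligible window by a two-sided Fisher's exact test of the EED inhibitor against the DMSO library, with Benjamini-Hochberg adjustment. This compares the reads of 2 libraries, not conditions. A call needed 10 points or more together with an adjusted p under 0.05, and 2 of 579 members had lower flanks and none had higher ones. Over all eligible windows 0.0676% had lower and 0.0183% higher flanks, and over those at 20% or more in DMSO and NonDiff 0.0633% and 0.0187%. The flank difference had a median of −1.72 points in members and −0.69 points in usable windows, and it was negative in 435 of 579 members (75.1%, against 63.5% of usable windows). Members and usable windows were not matched here for methylation level or number of CpGs. The 2 members with lower flanks were chr9:13187001-13188000 in MPDZ, with a flank difference of −15.1 points (adjusted p = 5.68e-08, Fisher's exact test), and chr11:8138001-8139000 at exon 3 of RIC3, a chaperone of acetylcholine receptors, with −10.3 points (adjusted p = 0.000775). With flank reads divided by the number of CpGs neither was called. No 2 members touched, and only 1 pair had starts within 5 kb of each other, in an intron of PTPRG, a receptor tyrosine phosphatase. The levels of that pair in NonDiff, DMSO, the EED inhibitor and the DNMT1 inhibitor library were 42.1%, 42.9%, 21.95% and 7.14% in the one and 71.1%, 77.1%, 48.7% and 18.2% in the other.

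**Figure D3:**
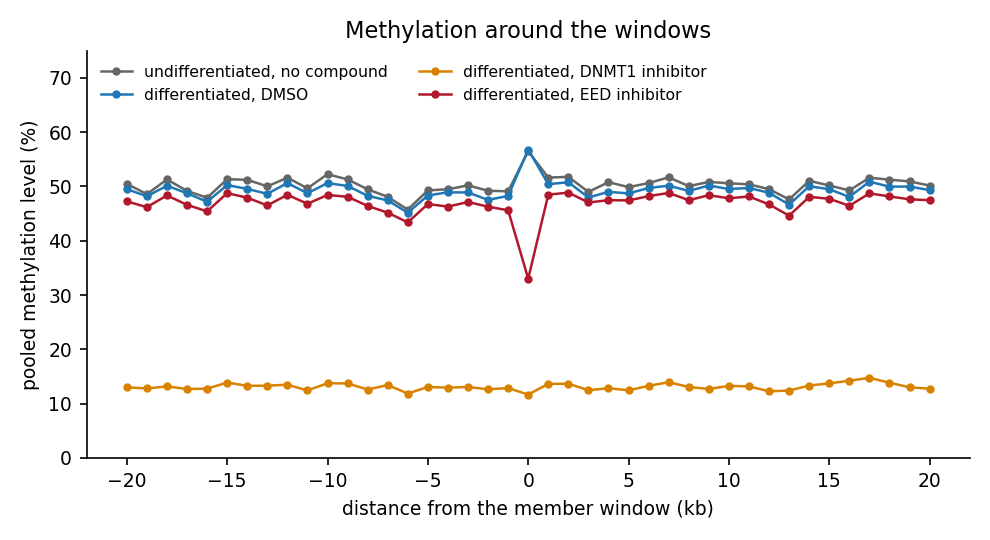
Pooled methylation level in percent (vertical axis) of eligible 1 kb windows by distance in kb from the 579 members (horizontal axis), 1 line per library. The dip at 0 was chosen by the rule, and at other distances the EED inhibitor line runs 0.91 to 2.65 points under DMSO.

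Members lay farther from gene starts than usable windows did, and less often in protein-coding genes. A member was intergenic in 283 cases (48.9%, against 34.8% of usable windows), in an intron of a protein-coding gene in 170 (29.4% against 41.0%), in a lncRNA gene in 107 (18.5% against 14.2%) and at an exon of a protein-coding gene in 18 (3.11% against 8.74%). The only member at a promoter was that of MAGEL2 (0.173%, against 1.27% of usable windows), and 1 member met the base-composition rule for a CpG island (0.173% against 0.305%). The median distance to the nearest protein-coding start was 210098 bp, against 67900 bp in usable windows. Within windows at 40% to 60% in NonDiff, the share that were members was 0.0673% for intergenic windows, 0.0658% for lncRNA genes, 0.0410% for introns and 0.0194% for exons. Neither the distance nor these shares were compared at a like number of CpGs, and members held fewer CpGs than usable windows. The part of CpG number in the location of members was not tested.

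The surrounding level, taken from NonDiff CpGs 5 to 50 kb away, was under 50% for 405 members (69.9%, against 34.4% of usable windows), 50% to 70% for 143 and 70% or more for 31 (5.35% against 33.8%). Since windows at intermediate levels meet the rule more often, the comparison was repeated within windows at 40% to 60% in NonDiff. There, 0.0822% of windows in surroundings under 50% were members, 0.0274% of those at 50% to 70% and 0.0174% of those at 70% or more. Among windows with 3 to 6 CpGs these shares were 0.136%, 0.0788% and 0.0147%. The surroundings themselves were lower with the EED inhibitor than in DMSO for 547 members (94.5%, against 75.6% of usable windows), with a median difference of −1.77 points. The median was −0.75 points in usable windows and −0.32 points for the 51 windows of the opposite direction. These sets were not matched for the surrounding level, which was under 50% more often for members than for usable windows. The part of that level in the difference was not tested.

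The low level with the DNMT1 inhibitor did not set members clearly apart. Among windows at 40% to 60% in NonDiff the median was 8.55% in members and 10.4% in all usable windows, and at 60% to 80% it was 14.1% and 16.9%. In windows with 3 to 6 CpGs and surroundings under 50% it was 9.09% in members and 7.69% in all, the opposite order. Stretches of 24 bases present at least 100 times in the genome made up 10% or more of 17.8% of members and of 36.4% of every 1000th usable window. With 3 to 6 CpGs the shares were 15.4% and 15.3%. CpGs flanked by A or T on both sides made up 31.9% of CpGs in members and 24.9% in usable windows, and with 3 to 6 CpGs 33.3% and 35.96%.

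Chromosome 18 held 51 members, or 9.33 per 10000 usable windows (7.10 to 12.3, Wilson), against 2.91 on the 21 other autosomes together and 0.919 to 5.04 on each of them. Among windows with 3 to 6 CpGs in surroundings under 50% it was 30.7 per 10000 on chromosome 18 (21.6 to 43.5) and 12.9 on the others together, and on chromosome 10 beyond 100 Mb it was 41.8 (23.4 to 74.7, from 11 of 2632 windows). The 51 members of chromosome 18 were spread along it, from position 969001 to 78466000. The windows of the opposite direction were also more frequent there, at 0.732 per 10000 (4 windows) against 0.259. The median coverage of the EED inhibitor library relative to DMSO was 0.875 in members on chromosome 18 and 1.07 in the other members. Over all eligible windows of chromosome 18 it was 0.855, so the lower coverage was not particular to members. Whether the difference in coverage plays a part in the count was not tested. On chromosome 10 beyond 100 Mb, where the EED inhibitor library was deeper, 12 members gave 4.61 per 10000 (2.64 to 8.06). Of the 20 members with the greatest shortfall, 5 were on chromosome 18.

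**Figure D4:**
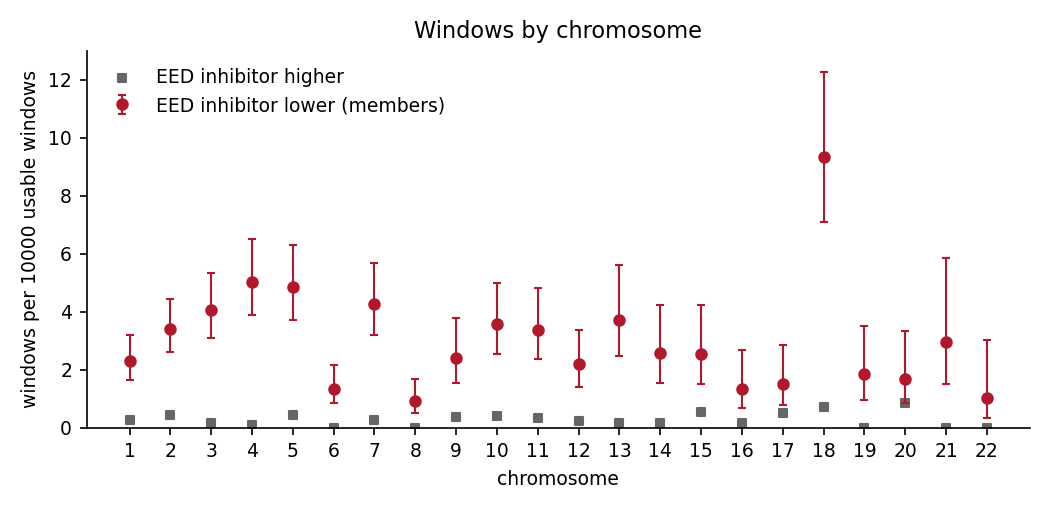
Windows per 10000 usable windows (vertical axis) on each autosome (horizontal axis), for members (circles, with 95% Wilson intervals) and for windows at least 20 points higher with the EED inhibitor (squares). Chromosome 18 stands at 9.33 and the other autosomes between 0.919 and 5.04.

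The 20 members with the greatest shortfall lay between 27.2 and 31.4 points, and 10 were intergenic, 7 in lncRNA genes and 3 at exons. All but 3 had 3 to 6 CpGs. The member of greatest shortfall overlapped exon 26 of MPDZ (chr9:13147001-13148000), a scaffold protein with many PDZ domains. Its 4 CpGs, 2 of which are in the printed stretch, had a level of 49.6% in NonDiff, 49.2% in DMSO, 17.8% with the EED inhibitor and 7.32% with the DNMT1 inhibitor, from 118 to 133 reads. The interval was 40.9% to 57.7% in DMSO and 11.9% to 25.7% with the EED inhibitor, and with reads divided by CpGs 33.2% to 65.5% and 8.00% to 35.0%. All 4 CpGs were lower with the EED inhibitor than in both references. In the printed stretch, the first CpG had 26.9% in NonDiff, 25.7% in DMSO and 2.86% with the EED inhibitor. The second had 67.7%, 50.0% and 46.2%, so its shortfall was small.

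The next was a window at exon 8 of TLE4 (chr9:79654001-79655000), a co-repressor of the Groucho family. All of its 7 CpGs lay within 107 bp, and each was lower than in both references. These CpGs ran from 35.7% to 95% in DMSO and from 10.0% to 58.3% with the EED inhibitor, from 20 to 33 reads each. The window's level was 67.2% in NonDiff, 64.3% in DMSO, 34.2% with the EED inhibitor and 19.1% with the DNMT1 inhibitor. A member at chr2:60275001-60276000 lay 278 kb from the start of BCL11A on its downstream side, outside the gene. It had 59.4%, 63.1%, 29.4% and 10.0% in the same order. BCL11A itself, and the other genes tied to globin switching, held no member. The member at chr7:27254001-27255000 lay 11.7 kb downstream of the start of EVX1, a homeobox gene, and had 49.1%, 51.0%, 20% and 2.48%.

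Among these 20, the member with the most shared CpGs was at chr19:21585001-21586000 in the lncRNA gene ENSG00000268555. It had 23 shared CpGs and 629 to 861 reads, and every one of the 23 CpGs was lower with the EED inhibitor than in both references. Its level was 52.9% in NonDiff, 57.6% in DMSO, 25.6% with the EED inhibitor and 11.7% with the DNMT1 inhibitor. Repeated 24-base stretches made up 18.2% of it. Reads from near-identical copies could be split or merged there, and this was not tested.

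The other members of greatest shortfall had 4 to 10 CpGs. On chromosome 18, the third in order (chr18:29563001-29564000) lay 1386 kb upstream of CDH2, the gene of N-cadherin, with 61.5% in NonDiff, 62.4% in DMSO, 31.4% with the EED inhibitor and 6.67% with the DNMT1 inhibitor. Members in the lncRNA genes LINC02864 and LINC02582 on the same chromosome had 53.1% and 41.6% in DMSO and 18.97% and 12.8% with the EED inhibitor. In LINC02582 the DNMT1 inhibitor level was 18.04%, above that with the EED inhibitor. An exon of NAV3, a gene of the neuron navigator family, had 77.6%, 70.4%, 42.3% and 10.8% in NonDiff, DMSO, the EED inhibitor and the DNMT1 inhibitor library. The window at chr2:91778001-91779000, was lower at each of its 10 CpGs, with 72.8%, 71.6%, 42.4% and 11.7% in the same order.

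Members within or near the listed gene groups were few. No member was found in or within 5 kb of the genes of globin switching and erythroid factors (3576 usable windows), of Polycomb subunits (1831), of DNA methylation writers and erasers (1080), of clustered protocadherins (380) or of olfactory receptors (3517). At the average rate of 0.0310% of usable windows, such numbers of windows hold few members or none. A single member was found in each of 3 other groups. These were red cell membrane and heme genes (1327 usable windows), developmental regulators (1532) and imprinted genes (1825). In RHCE, a Rh blood group gene of the red cell membrane, the levels were 67.9% in NonDiff, 61.7% in DMSO, 39.2% with the EED inhibitor and 7.18% with the DNMT1 inhibitor. The 8 shared CpGs of that window had 11 to 29 reads each, and 6 were lower than in both references. An intron of HOXA3, a homeobox gene and a classic Polycomb target, had 66.9%, 67.05%, 44.2% and 22.8%. Of the 8 CpGs of that window, 6 were lower than in both references. The promoter of MAGEL2, an imprinted gene of the Prader-Willi region, had 42.3%, 42.7%, 21.2% and 14.5% over 11 CpGs, 10 of which were lower than in both references. The zinc finger genes had 5 members of 20623 usable windows, in ZNF800, ZNF532, ZNF726 and ZNF420 and in the 5 kb beyond ZNF430, where the member was intergenic. In all, 176 genes held a member and 15 held 2 or more, with 4 in ROBO2, an axon guidance receptor, and 3 each in MPDZ, PTPRG and ENSG00000283563. These genes differ in length: ROBO2 held 1027 usable windows, ENSG00000283563 763, PTPRG 607 and MPDZ 128. The ROBO2 members had 41.0% to 72.1% in DMSO and 13.1% to 47.5% with the EED inhibitor, and the 1240 other windows of that gene differed by −2.26 points between these libraries.

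Beyond the members themselves, MPDZ was lower with the EED inhibitor along most of its body. This gene was chosen after its members were seen, so the scan is a description without a test. With members left out, its 125 other windows had pooled levels of 55.9% in NonDiff, 56.4% in DMSO, 47.7% with the EED inhibitor and 14.5% with the DNMT1 inhibitor, and 113 of them (90.4%) were lower than DMSO, against 56.2% of all eligible windows that are no members. The difference from DMSO was −8.60 points and that from NonDiff −8.12 points. The 6 windows that lay whole within the first 10 kb from the start differed by 0.81 points, and the 117 that lay whole between there and the gene's end differed by −9.39 points. The 2 windows that cross the start and the end of the gene are in neither count, and they differed by 0.90 and −10.8 points. The 50 kb beyond the end of the gene differed by −3.67 points and the 50 kb before its start by −1.26 points. Among 10655 protein-coding genes with at least 20 such windows, 5 (0.0469%) were at least 5 points lower than both references and none was 5 points higher. MPDZ came first and was the only one of the 5 with a member. The others were AGK, a mitochondrial lipid kinase, at −7.16 points, and MAP9, INTS13 and PEX2 at −5.53, −5.32 and −5.80 points from DMSO. Over the 172 of these genes that held a member the median difference was −1.41 points, against −0.38 points over all 10655. The genes were not matched for methylation level or length, and the part of either in this difference was not tested.

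**Figure D5:**
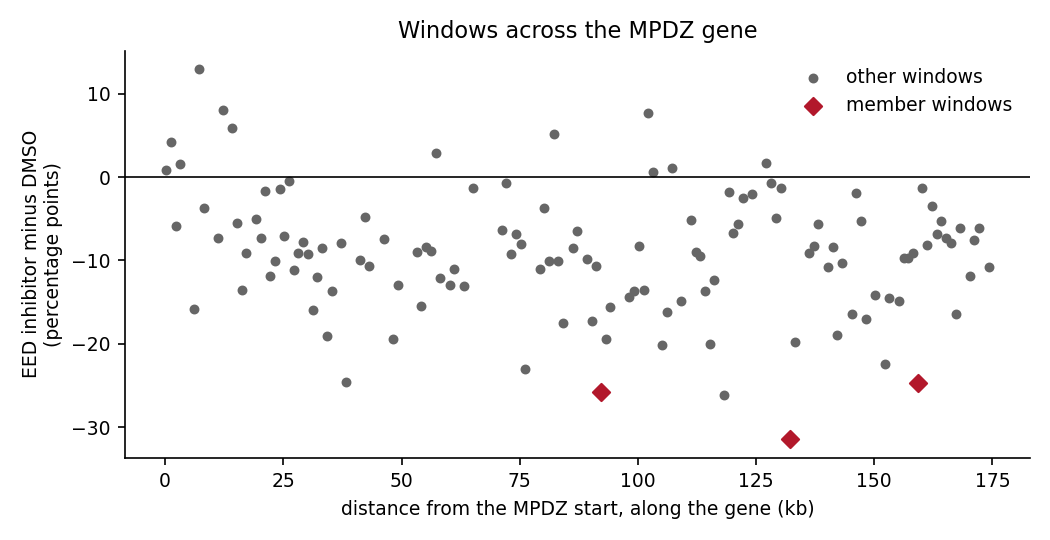
Difference in methylation between the EED inhibitor and DMSO libraries in percentage points (vertical axis) for windows across MPDZ, by distance in kb from the start along the gene (horizontal axis). The 3 diamonds are members and the grey points are the 125 other windows, whose median is −8.95 points.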

How the data were processed

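Whole-genome bisulfite reads of 4 HUDEP-2 libraries were processed by the authors with Trim Galore 0.6.7, cutadapt 4.1, Bismark, Bowtie2 2.1.0 and methylKit on hg38, per the submitters' processing notes, which give no order or settings. Libraries were made with the Accel-NGS Methyl-Seq kit, per the labels' protocols. Duplicate removal and end trimming can change levels and read independence, and their settings are not given in the sources used here. The deposited tables give, per CpG with both strands merged, the coverage as a count of at least 10 reads and the percent of reads with C and with T. The deposited percent times the deposited count was rounded to whole reads, which were taken as methylated reads. For 100.0% of lines these gave back the deposited percent within a small rounding margin. Of the listed autosomal positions, 99.97% were CpGs of the hg38 reference.

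Levels were methylated over all reads of the CpGs listed in all 4 libraries. Genes came from GENCODE 44. A promoter ran from 1000 bp upstream to 500 bp downstream of the MANE Select or canonical start, and an exon took precedence over an intron, a protein-coding over a lncRNA gene. Surroundings needed at least 20 CpGs. Flanks were tested by Fisher's exact test, checked on simulated data, with Benjamini-Hochberg adjustment over all eligible windows (numba 0.67.0, scipy 1.17.1, statsmodels 0.14.6). Named windows were the 20 with the greatest shortfall, promoter members, runs of members, windows beside the threshold and those in 9 gene lists. The members, lists and rule were chosen with earlier results of these data known. Alternatives changed the threshold, read and CpG minimum, grid, window length, weighting, coverage limits, references, surroundings, promoter and flank definitions. The gene-body scan was added after the members were seen. Some items are not reported here.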

Additional observations from a re-analysis of the deposited data

How the results depend on the processing

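No paired analysis was possible because each group had 1 library. The member count moved by over 1.5 times with the threshold, the minimum of reads or CpGs, the window length, the weighting and the references, and the cause was not tested unless fewer windows or reads entered. It was 675 with CpGs of at least 20 reads, 579 with CpGs above 100 reads left out and 560 on the grid moved by 500 bp. There were 5014, 60 and 4 members at 15, 25 and 30 points, with 680, 5 and 0 windows of the opposite direction. A minimum of 50 or 200 reads gave 1582 or 38 members against 191 or 2 in the opposite direction. A minimum of 5 or 10 CpGs gave 310 or 14 members against 30 or 3. Windows of 2 kb gave 85 against 6, and the unweighted mean of CpG levels gave 364 against 27. With DMSO alone as reference there were 2800 against 728, and with NonDiff alone 2836 against 291. In each of these settings more windows were lower than higher with the EED inhibitor.

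The share of members on chromosome 18 was 8.81%, and it was 5.50%, 13.3% and 25.0% at 15, 25 and 30 points, 4.80% and 18.4% at 50 and 200 reads, 4.71% in 2 kb windows, 4.82% with DMSO alone and 5.96% with NonDiff alone. With chromosome 18 and chromosome 10 beyond 100 Mb left out it was 0 by construction, and 516 members were left. The share of members in surroundings under 50%, 69.9%, was 64.96%, 60% and 50.0% at 15, 25 and 30 points, 42.9% with 10 CpGs, 75.3% in 2 kb windows and 65.1% with NonDiff alone. The intergenic share, 48.9%, was 44.7% at 200 reads. The pooled DNMT1 inhibitor level, 11.7%, was 11.4% and 11.9% at 25 and 30 points, 15.9% at 200 reads, 12.4% and 19.98% with 5 and 10 CpGs, 12.1% on the grid moved by 500 bp, 10.4% in 2 kb windows, 10.9% with DMSO alone and 11.4% with NonDiff alone.

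Members with flanks called lower were 2 of 579 in the report. They were 11 of 5014, 0 of 60 and 0 of 4 at 15, 25 and 30 points. At 50 and 200 reads they were 8 of 1582 and 0 of 38. With 10 CpGs they were 0 of 14, and in 2 kb windows 1 of 85. With CpGs of at least 20 reads they were 6 of 675. From the totals above, 5 were called with DMSO alone and 9 with NonDiff alone. Over all windows tested, the share with lower flanks was 0.0676% in the report. It was 0.0577% at 15 points, 0.0791% and 0.0390% at 50 and 200 reads and 0.0904% in 2 kb windows. With CpGs of at least 20 reads it was 0.144%, with DMSO alone 0.0581% and with NonDiff alone 0.0657%. With flank reads divided by CpGs the member count was 0, and so was the count over all 2023408 windows tested. Gene bodies lower by 5 points numbered 5 in the report, 2 at 200 reads, 3 with 5 CpGs, 2 with 10 CpGs and 3 in 2 kb windows. The difference of the MPDZ gene body from DMSO was negative in each setting run. With the unweighted mean, the member windows in ZNF726, in ZNF532 and, among the others recomputed, at chr17:53884001-53885000 were −14.3, −18.7 and −19.8 points from DMSO, short of the rule. With 1 library per group and a median of 132 to 152 reads per member, depth limits what a single window can show.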
